A study of Homo sapiens with 16 samples.

Results

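The clustered protocadherins of SK-N-BE(2) cells were taken as the genes of the alpha, beta and gamma clusters by symbol. Symbols PCDHA, PCDHB and PCDHGA, PCDHGB or PCDHGC followed by their number, and the alpha C-type genes, matched 54 of the 63187 genes in the count table. A minimum of 10 counts in at least 4 libraries kept 52 of them, 15 in the alpha, 15 in the beta and 22 in the gamma cluster. PCDHA14 and PCDHB1 fell under that minimum. The rule uses names and abundance only.

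Clustered protocadherins are cadherin-type adhesion proteins of the neuronal surface. Each cell is known to use a small set of the variable promoters, and the proteins bind their own kind on neighbouring membranes, which lets neurites recognise their own branches. In the alpha and gamma clusters each variable exon is spliced to constant exons that the whole cluster shares, while each beta gene is a single exon of its own. The C-type genes PCDHAC1, PCDHAC2, PCDHGC3, PCDHGC4 and PCDHGC5 lie next to the constant exons and are known for steadier use across neurons than the others. CTCF and cohesin bring the promoters to distant enhancers, and DNA methylation is known to silence them. Methylation of the beta cluster has been described in neuroblastoma.

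Polyadenylated RNA was sequenced in 16 libraries. All came from SK-N-BE(2), an established line from a human neuroblastoma, kept in 21% oxygen and 10% serum. There were 4 groups of 4 libraries. WT libraries came from wild-type cells, and the other 3 groups from the same line transfected with a form of HIF-2α, the hypoxia-inducible transcription factor that EPAS1 encodes. FL carried the full-length protein, NCTAD the form that the series text writes as ΔN-CTAD, and cIDR the form it writes as Δc-IDR. The labels give no vector, no time after transfection and no mock-transfected group, so transfection and the HIF-2α form cannot be told apart in comparisons with WT. Replicate numbers 1 to 4 are also labelled as batches 1 to 4, and each batch holds 1 library of each group. Nothing in the labels says whether the libraries of a group were separate cultures, so p-values measure only the spread between these libraries.

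Libraries held 38.6 to 56.1 M estimated counts, of which the members together took 19285 to 26745, or 0.0393 to 0.0546%. EPAS1, the label check, had 621 to 1511 counts in WT libraries and 65359 to 282023 in the transfected ones, with no overlap. Of 12 adrenergic neuroblastoma markers, 11 were above 1 TPM (a level scaled to gene length and library size) in all 16 libraries, TH being the exception. Markers of blood and epithelial cells were near 0, with summed levels of 0.0627 to 0.620 and 0.871 to 3.30 TPM. The Schwann cell marker SOX10 reached at most 0.0435 TPM, and the 4 Schwann markers summed to 3.98 to 8.50 TPM. FL library 4 stood apart, with 2.55% of counts from mitochondrial transcripts where the other 15 libraries had 6.20 to 10.3%. FL library 1 held extreme levels of several members. Its TPM was the lowest of all 16 libraries for PCDHGC4 (3.48), PCDHA11 (2.13) and PCDHAC1 (1.51), and the highest for PCDHAC2 (13.6). In bulk RNA, fewer cells using a gene and less RNA per cell cannot be told apart.

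Promoter windows are shown here because many members of a cluster hold a similar stretch around a conserved element. RefSeq promoters of GRCh38.p14, spanning 250 bases before to 50 bases after the start, were matched for 46 of the 52 members by symbol. PCDHA3, PCDHA13, PCDHB6, PCDHB11, PCDHGA12 and PCDHGC5 were not matched. The 12 windows below are 50 bases on the + strand of chromosome 5, and capitals mark CGCT, the core letters of the conserved element. The capitals show a match of letters only. Whether each window, that of PCDHGC4 included, holds the element itself was not tested. The windows cover the members called in the comparison of batches that had a window and were named by the rule, and the abundant PCDHGC4, PCDHB16, PCDHA11 and PCDHA10.
PCDHGC3 (chr5:141475871-141475920): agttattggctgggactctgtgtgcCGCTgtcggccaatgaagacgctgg
PCDHGC4 (chr5:141484943-141484992): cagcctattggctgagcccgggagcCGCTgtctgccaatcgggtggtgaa
PCDHGA1 (chr5:141330394-141330443): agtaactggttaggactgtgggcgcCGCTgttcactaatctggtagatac
PCDHGA8 (chr5:141392559-141392608): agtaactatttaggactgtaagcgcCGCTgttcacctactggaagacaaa
PCDHGA10 (chr5:141412922-141412971): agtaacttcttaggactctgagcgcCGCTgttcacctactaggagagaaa
PCDHB14 (chr5:141223254-141223303): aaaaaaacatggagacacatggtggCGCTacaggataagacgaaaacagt
PCDHB9 (chr5:141187065-141187114): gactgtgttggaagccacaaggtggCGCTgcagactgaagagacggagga
PCDHB10 (chr5:141192290-141192339): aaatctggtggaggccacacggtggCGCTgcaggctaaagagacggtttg
PCDHB2 (chr5:141094535-141094584): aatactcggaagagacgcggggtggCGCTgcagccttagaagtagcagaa
PCDHB16 (chr5:141182301-141182350): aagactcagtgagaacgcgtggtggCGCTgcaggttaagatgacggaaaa
PCDHA11 (chr5:140868874-140868923): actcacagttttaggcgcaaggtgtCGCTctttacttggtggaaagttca
PCDHA10 (chr5:140855832-140855881): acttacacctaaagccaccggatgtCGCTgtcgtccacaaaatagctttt

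The core CGCT, read on either strand, was in the promoter of 45 of 46 matched members and in 71.9% of the 27305 genes of the promoter table. TGTCGCT was in 10 of 13 alpha promoters, 1 of 13 beta promoters, 3 of 20 gamma promoters and 2.15% of all genes. TGGCGCT was in 13 of 13 beta promoters, no alpha promoter, 3 of 20 gamma promoters and 4.92% of all genes. CCGCTGT was in 11 of 20 gamma promoters and 4.72% of all genes, and TCGCTGT, which can overlap TGTCGCT, in 6 of 20 gamma and 6 of 13 alpha promoters and 2.59% of all genes. These forms were read from the promoters' own letters, all hold the core, and their cluster counts are therefore a description. A window of this kind was found for 38 of 46 members, with the core a median of 58 bases before the start. PCDHA9, PCDHAC1 and PCDHAC2 had no window of the alpha form, and PCDHA9 was the 1 matched member without the core.

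HIF proteins bind DNA at short sites that hold ACGTG or the variant GCGTG. The first was in 10 of 46 member promoters against 24.9% of all genes, and the variant in 7 of 46 against 40.6%, on either strand. The counts say nothing of binding. Among the members named for their level, the first was in the promoters of PCDHA10, PCDHA11, PCDHAC1 and PCDHB16. The variant was in those of PCDHGC3, PCDHGC4 and PCDHB16, among others.

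The gamma C-type gene PCDHGC3, which is known to promote dendrite branching and to bind the Wnt pathway protein AXIN1, stood far above the rest. Its level was 58.2 TPM in the lowest library, 83.3 in the median and 106 in the highest, with a mean of 81.0 ± 15.2 TPM (SD, n = 16). The alpha C-type gene PCDHAC2, known for the even spacing of serotonergic axons, came next at 9.78 ± 1.39 TPM, with a range of 7.76 to 13.6. The ranges of these 2 genes did not overlap, so PCDHGC3 was the higher in every library.

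PCDHB16 was the most abundant beta gene at 8.12 ± 0.895 TPM, followed by PCDHB2 at 5.30 ± 0.635 and PCDHB8 at 3.01 ± 0.564. PCDHGC4, a gamma C-type gene needed for survival of cortical interneurons in mice, was at 6.48 ± 1.28 TPM, and PCDHGB7 at 4.05 ± 0.711. In the alpha cluster PCDHA11 had 4.56 ± 1.25 TPM and PCDHA10 4.18 ± 0.809. The first 8 places in the order of all 52 members therefore held genes of each cluster.

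The other alpha C-type gene PCDHAC1 was at 2.63 ± 0.432 TPM. PCDHGC5, whose protein binds GABA-A receptors, was at 0.374 ± 0.0907 TPM, with 28 to 74.3 counts per library. The C-type genes were thus not all abundant in these cells. Together they made up 59.0 ± 3.58% of the members' summed TPM, and PCDHGC3 alone 47.5 ± 4.34%. Within the gamma cluster PCDHGC3 held 75.3 ± 3.35% of TPM, PCDHAC2 held 32.9 ± 4.96% of the alpha cluster, and PCDHB16 held 25.2 ± 1.72% of the beta cluster.

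From PCDHAC2 down, mean levels fell gradually. A mean over 1 TPM was reached by 24 of 52 members, and at least 10 counts in all 16 libraries by 46. PCDHA9 was lowest at 0.0743 ± 0.0461 TPM, just below PCDHA4 at 0.0817 ± 0.0386 and PCDHGB5 at 0.0903 ± 0.0373. PCDHA6 had 0 counts in WT library 3 and up to 28.0 in cIDR library 2, and 3 counts, the limit that a count of 0 allows, were worth 0.0528 to 0.0812 CPM across libraries, CPM being counts scaled to library size. Between alpha genes the span was wide: PCDHA10 and then PCDHA11 followed PCDHA9 along the chromosome and lay far above it in level.

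The order of members was much alike in all libraries. Spearman's rho between 2 libraries over the 52 members, which share a library's depth and composition, was at least 0.913 and had a median of 0.969. Of 49 neighbouring pairs in the order within clusters, the ranges over the 16 libraries overlapped in 47. In 9 pairs the first gene was higher in 16 of 16 libraries, among them PCDHAC2 over PCDHA11, PCDHA10 over PCDHA2, PCDHB16 over PCDHB2, PCDHB2 over PCDHB8, PCDHGC3 over PCDHGC4 and PCDHGC4 over PCDHGB7.

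Assignment of reads among members limits these values. Of the members' nonzero estimated counts 91.2% were not whole numbers, at a tolerance of 0.01, against 22.3% over all genes, with 84.5% in the alpha, 96.3% in the beta and 92.3% in the gamma cluster. In GENCODE 29 the longest transcripts of alpha members share a median of 2868 bases at the 3′ end with another member, those of gamma members 2184, and those of beta members 2. Stretches of 31 bases found in no other gene made up a median of 37.7% of an alpha transcript, 76.7% of a beta and 49.2% of a gamma transcript. Non-whole counts were thus at least as common in the beta cluster, with little shared 3′ end, as in the others, and what they arise from was not tested. Levels of single genes in all 3 clusters carry the uncertainty of that division. The clusters lie on chromosome 5, + strand, of GRCh38: alpha at chr5:140786136-141012347, beta at chr5:141094578-141249365 and gamma at chr5:141330571-141512981.

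The first comparison asked whether any HIF-2α form went with another level of the clusters. Cluster sums are CPM after TMM scaling of library sizes, given for batches 1 to 4 in order. The alpha sum was 102, 90.8, 112 and 108 CPM in WT, 93.8, 97.3, 106 and 113 in FL, 106, 96.6, 108 and 109 in NCTAD, and 113, 94.8, 100.4 and 99.9 in cIDR. The 4 groups overlapped. Within batches the log2 difference of the alpha sum from WT was -0.0071 ± 0.10 for FL, 0.028 ± 0.062 for NCTAD and -0.012 ± 0.14 for cIDR (mean ± SD, n = 4 batches).

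The beta sum was 72.3, 64.6, 82.0 and 80.4 CPM in WT, 77.1, 73.4, 80.7 and 75.1 in FL, 73.5, 69.0, 79.4 and 80.6 in NCTAD, and 80.2, 68.3, 78.4 and 76.2 in cIDR. Each group was lowest in batch 2. Its log2 differences from WT were 0.039 ± 0.12 for FL, 0.019 ± 0.059 for NCTAD and 0.022 ± 0.11 for cIDR.

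The gamma sum was 304, 217, 313 and 304 CPM in WT, 323, 235, 303 and 345 in FL, 326, 224, 281 and 292 in NCTAD, and 336, 222, 281 and 277 in cIDR. Again the groups overlapped, and batch 2 was lowest in each. The log2 differences from WT were 0.083 ± 0.096 for FL, -0.017 ± 0.11 for NCTAD and -0.029 ± 0.14 for cIDR. Without batch 4, which holds FL library 4, the FL value was 0.050 ± 0.085, and without batch 3 it was 0.13 ± 0.050. Over all 4 batches, for all 3 clusters and all 3 forms, the mean difference was smaller than the SD over batches, and no form was higher or lower than WT in 4 of 4 batches.

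**Figure D1:**
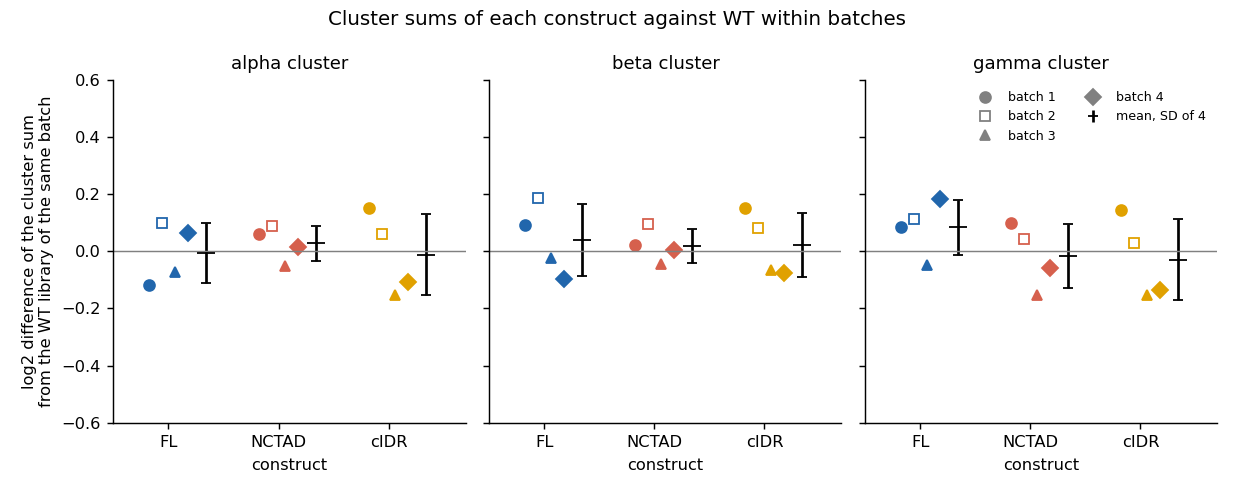
Log2 difference of the summed CPM of each cluster from the WT library of the same batch (vertical) for FL, NCTAD and cIDR (horizontal). Symbols are batches, with batch 2 open, and the black mark is the mean with the SD of the 4 batches: every one of the 9 sets has batches on both sides of 0.

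No member passed the test in any of the 6 comparisons between groups. With edgeR's quasi-likelihood test and an adjusted p under 0.05, 0 of 52 were called for FL against WT, where 0.0102% of the 19530 tested genes were called, 0 of 52 for NCTAD against WT (0.0256% of all), and 0 of 52 for cIDR against WT (0.0102% of all). NCTAD against FL, cIDR against FL and cIDR against NCTAD called 0 of 52 members and 0% of all genes each. At an unadjusted p under 0.05 the members numbered 1, 0 and 3 in the comparisons of FL, NCTAD and cIDR with WT (1.14%, 1.42% and 1.37% of all genes), and 0 in each of the other 3 (0.886%, 0.906% and 0.609%). With batch as a block 0 of 52 were called as well, where the block called 0.102%, 0.456% and 0.486% of all genes for FL, NCTAD and cIDR against WT, 0% for NCTAD against FL and 0.0307% for cIDR against FL. Between NCTAD and cIDR it called 0.00512%. The unadjusted counts with the block were 4, 2 and 2 against WT (5.11%, 5.96% and 5.45% of all genes) and 0 in the other 3 (3.69%, 3.68% and 2.15%). DESeq2 also called 0 members in each of the 6.

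The member with the smallest p in each comparison is given from the fit without the block. For FL against WT it was PCDHAC1. Its level in batches 1 to 4 was 8.52, 8.77, 11.1 and 9.18 CPM in WT, 5.27, 8.69, 7.93 and 8.18 in FL, 8.80, 8.28, 8.25 and 9.72 in NCTAD, and 7.09, 6.83, 8.61 and 7.36 in cIDR. FL and cIDR were under WT in 4 of 4 batches, though the ranges overlapped. The log2 fold change was -0.32 ± 0.15 (SE) for FL and -0.33 ± 0.15 for cIDR, both compared with the same WT libraries, and neither passed the edgeR test (adjusted p = 1 and 0.99988). With single libraries left out the value for FL ranged from -0.39 to -0.19. For cIDR against NCTAD PCDHAC1 also had the smallest p, at -0.23 ± 0.15 (edgeR adjusted p = 0.99998), while with the block PCDHGA12 had it.

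PCDHA13, a weakly expressed alternate alpha gene, had the smallest p for cIDR against WT, where PCDHAC1 had it with the block. PCDHA13 was at 0.334, 0.428, 0.265 and 0.439 CPM in WT and at 0.623, 0.968, 0.415 and 0.790 in cIDR. The cIDR library was the higher in each batch, the groups overlapped, and the log2 fold change of 0.93 ± 0.39 did not pass (edgeR adjusted p = 0.99988). The gene had 11.5 to 54.5 counts per library.

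PCDHGA12 had the smallest p for NCTAD against WT, with 0.751, 1.32, 1.09 and 0.747 CPM in WT and 0.650, 0.787, 0.814 and 0.301 in NCTAD. Its log2 fold change was -0.61 ± 0.33 (edgeR adjusted p = 1). For NCTAD against FL the smallest p belonged to PCDHGC5, with 1.65, 1.45, 1.59 and 0.836 CPM in FL and 0.650, 1.17, 1.03 and 0.796 in NCTAD (-0.59 ± 0.30, edgeR adjusted p = 0.99995). For cIDR against FL it belonged to PCDHGA5 (with the block, to PCDHGC3), with 2.60, 2.49, 2.04 and 1.73 CPM in FL and 1.87, 0.915, 1.91 and 1.63 in cIDR (-0.49 ± 0.27, edgeR adjusted p = 0.99998). Each of these 3 genes was lower in 4 of 4 batches in its comparison, the groups overlapped, and no difference passed the test.

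In all 6 comparisons 2 members had groups that did not overlap. PCDHB5 was higher in FL, at 0.319 to 0.451 CPM, than in WT, at 0.176 to 0.290, which made 1 of 52 members (0.456% of all genes were higher without overlap), and its log2 fold change was 0.76 ± 0.37 (edgeR adjusted p = 1). PCDHA8 was lower in cIDR, at 4.54 to 5.36 CPM, than in NCTAD, at 5.40 to 6.24, again 1 of 52 (0.41% of all), by the test -0.18 ± 0.17 (edgeR adjusted p = 0.99998). Both were named after their values were seen. The median log2 fold change of the 52 members was 0.080 for FL against WT, where that of all tested genes was 0.014, and 32.7% of the members lay below 0, where 45.6% of all genes did.

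The forms were also compared with each other. Within batches the gamma sum differed from FL by -0.10 ± 0.11 for NCTAD and -0.11 ± 0.16 for cIDR on the log2 scale, lower in 3 of 4 batches each, and NCTAD and cIDR differed by -0.012 ± 0.051. Without batch 4 the differences from FL were -0.054 ± 0.062 and -0.044 ± 0.090, and without batch 1 that of cIDR was -0.17 ± 0.13. The alpha sum differed from FL by 0.035 ± 0.099, which became -0.087 with the mean of the members' log2 CPM, and by -0.0045 ± 0.19, and the beta sum by -0.020 ± 0.086 and -0.017 ± 0.071. Both sets of values rest on the same FL libraries. The median log2 fold change of the 22 gamma members was -0.26 for NCTAD and -0.18 for cIDR against FL, where that of all genes was 0.0060 and -0.0019. Lower in 4 of 4 batches than FL were 7 of 52 members for NCTAD (5.21% of all genes) and 4 of 52 for cIDR (5% of all genes). PCDHGC3, for which all 4 FL libraries lay above those of the same batch, had log2 fold changes of -0.12 ± 0.18 for NCTAD and -0.13 ± 0.18 for cIDR (edgeR adjusted p = 0.99995 and 0.99998). With the block the errors were smaller, at -0.12 ± 0.064 and -0.13 ± 0.064, and neither was called (edgeR adjusted p = 0.99631 and 0.99996).

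The second comparison asked how batch 2 differed from batches 1, 3 and 4. The summed CPM of all 3 clusters was lower in batch 2 in 4 of 4 groups, but the alpha difference changed sign when the mean of the members' log2 CPM was used (0.0052). The gamma sum differed most, at 224 ± 7.45 CPM in batch 2 (SD, n = 4) and 307 ± 22.2 in the other 12 libraries, with ranges of 217 to 235 and 277 to 345. That was a log2 difference of -0.45 ± 0.037 (mean ± SD over 4 groups), or -26.8%. Without PCDHGC3 the gamma sum was 71.9 ± 3.99 against 85.8 ± 5.94 CPM, a log2 difference of -0.25 ± 0.10.

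The alpha sum was 94.9 ± 2.91 CPM in batch 2 and 106 ± 5.82 elsewhere, a log2 difference of -0.15 ± 0.060. The beta sum was 68.8 ± 3.61 against 78.0 ± 3.14 CPM, a log2 difference of -0.18 ± 0.080. Alpha ranges overlapped (90.8 to 97.3 in batch 2 and 93.8 to 113 elsewhere), and so did beta ranges (64.6 to 73.4 and 72.3 to 82.0). With the mean of the members' log2 CPM, which weights each gene alike, the difference was 0.0052 for alpha and -0.21 for gamma. With library totals in place of TMM it was -0.083 for alpha, and with summed TPM -0.082 for beta. Each batch is 1 batch, so these values describe batch 2 and not a kind of batch.

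**Figure D2:**
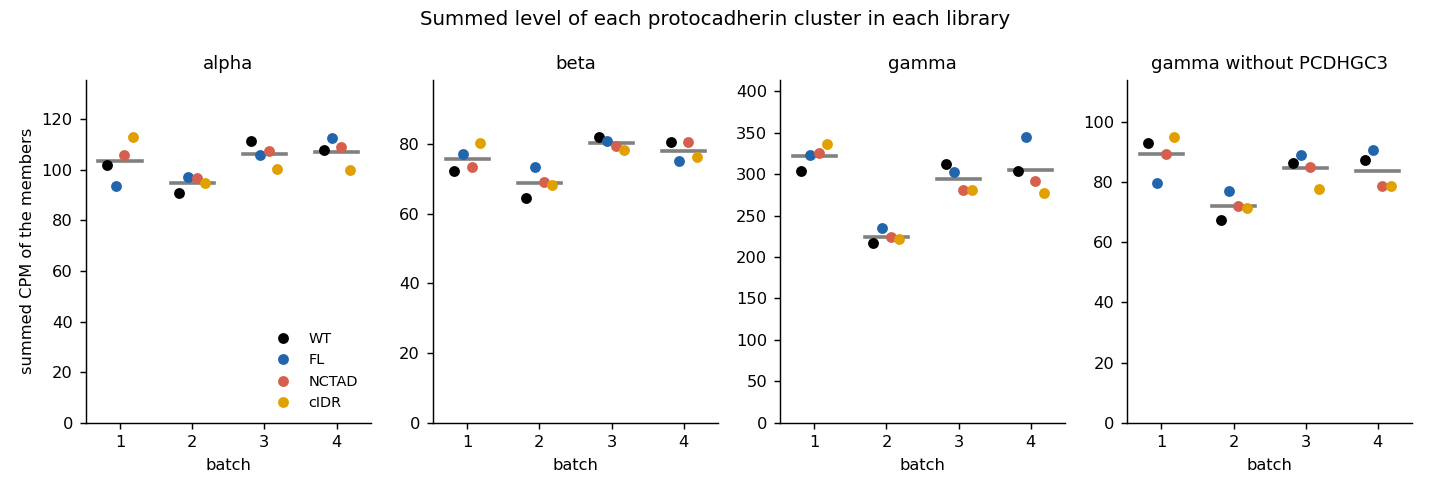
Summed CPM of the members of each cluster (vertical, from 0) in batches 1 to 4 (horizontal), with the gamma sum also shown without PCDHGC3. Points are libraries coloured by group and grey bars are batch means: gamma in batch 2 lies at 217 to 235 CPM, below the 277 to 345 of the other batches.

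Of the members 11 of 52 were lower in batch 2 (21.2%), where 26.1% of all tested genes were lower, and 0 of 52 were higher, where 27.7% of all genes were. The share lower was thus near the background. Below 0 lay 41 of 52 log2 fold changes (78.8%, and 46.8% of all genes), and their median was -0.11 where that of all genes was 0.035. The alpha cluster had 1 of 15 members called, the beta cluster 5 of 15 and the gamma cluster 5 of 22, with medians of -0.033, -0.055 and -0.21. The count rested on settings: it was 17, all lower, without FL library 1, with 27.4% of all genes lower, and 7 with limma on log2(TPM + 0.1). In that fit 6 were lower, with 15.5% of all genes lower and 27.1% higher. PCDHB8, named by rule for its level and picked here after its value was seen, was higher at 0.36 ± 0.14 (limma adjusted p = 0.049).

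PCDHGC3 had the clearest difference. It was at 150, 158, 152 and 150 CPM in the WT, FL, NCTAD and cIDR libraries of batch 2. Elsewhere it ranged from 196 to 254 CPM, so that no library of batch 2 reached the others. The log2 fold change was -0.54 ± 0.054 (edgeR adjusted p = 1.1e-06). As a share of the members' TPM it was 41.5% in batch 2 and 49.6% in the other batches.

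PCDHGA1, the first gene of the gamma cluster, was at 7.50, 6.83, 7.79 and 5.97 CPM in the WT, FL, NCTAD and cIDR libraries of batch 2 and at 8.96 to 12.3 elsewhere, without overlap (log2 fold change -0.61 ± 0.072, edgeR adjusted p = 5.5e-06). PCDHGA8 was at 0.391, 0.803, 0.707 and 0.704 CPM in batch 2 and at 0.623 to 1.53 elsewhere, with overlap (-0.82 ± 0.23, edgeR adjusted p = 0.0068). Against batch 3 alone PCDHGA8 was no longer called (-0.67 ± 0.27, edgeR adjusted p = 0.054). PCDHGA10 was at 2.12, 2.62, 2.10 and 2.99 CPM in batch 2 and at 2.23 to 4.62 elsewhere (-0.58 ± 0.15, edgeR adjusted p = 0.0051), and lost its call against batch 1 alone (-0.32 ± 0.19, edgeR adjusted p = 0.18).

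Among the single-exon beta genes PCDHB14 differed most. Its levels in batch 2 were 3.65, 4.56, 4.40 and 4.77 CPM in WT, FL, NCTAD and cIDR, under the 5.39 to 7.98 of the other batches (-0.63 ± 0.088, edgeR adjusted p = 2.6e-05). PCDHB9 was at 6.27, 5.93, 5.53 and 5.25 CPM in batch 2 and 6.25 to 8.90 elsewhere, where only NCTAD library 1 lay below the highest of batch 2 (-0.44 ± 0.076, edgeR adjusted p = 0.00017). PCDHB10 (-0.43 ± 0.12, edgeR adjusted p = 0.0064) and PCDHB2 (-0.26 ± 0.073, edgeR adjusted p = 0.0084) were lower as well, but neither was called against batch 4 alone (edgeR adjusted p = 0.12 and 0.056). On log2(TPM + 0.1) both lost the call, PCDHB10 at -0.33 ± 0.13 and PCDHB2 at only -0.078 ± 0.11 (limma adjusted p = 0.055 and 0.61). On log2(TPM + 1) PCDHB10 kept the call (-0.20 ± 0.074, limma adjusted p = 0.040). PCDHB2 also lost it without cIDR library 2 (edgeR adjusted p = 0.055).

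PCDHAC2 was the one alpha gene called. It was at 27.5, 29.3, 28.7 and 30.0 CPM in WT, FL, NCTAD and cIDR of batch 2 and at 31.6 to 38.4 elsewhere, without overlap (-0.27 ± 0.055, edgeR adjusted p = 0.00075). On TPM the call was lost (limma on log2(TPM + 0.1), -0.26 ± 0.10, adjusted p = 0.056). PCDHB7 (-0.42 ± 0.12) and PCDHGB1 (-0.40 ± 0.15), named after their values were seen, complete the 11 (edgeR adjusted p = 0.0089 and 0.036). PCDHB7 lost its call with limma on log2(TPM + 0.1) but kept it on log2(TPM + 1) (-0.17 ± 0.061, limma adjusted p = 0.044). PCDHGB1 was not called against batch 1, 3 or 4 alone (edgeR adjusted p = 0.16, 0.057 and 0.065), nor by limma on TPM. In all, 4 of 52 members were lower without overlap, PCDHGC3, PCDHGA1, PCDHB14 and PCDHAC2, where 14.6% of all genes were.

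**Figure D3:**
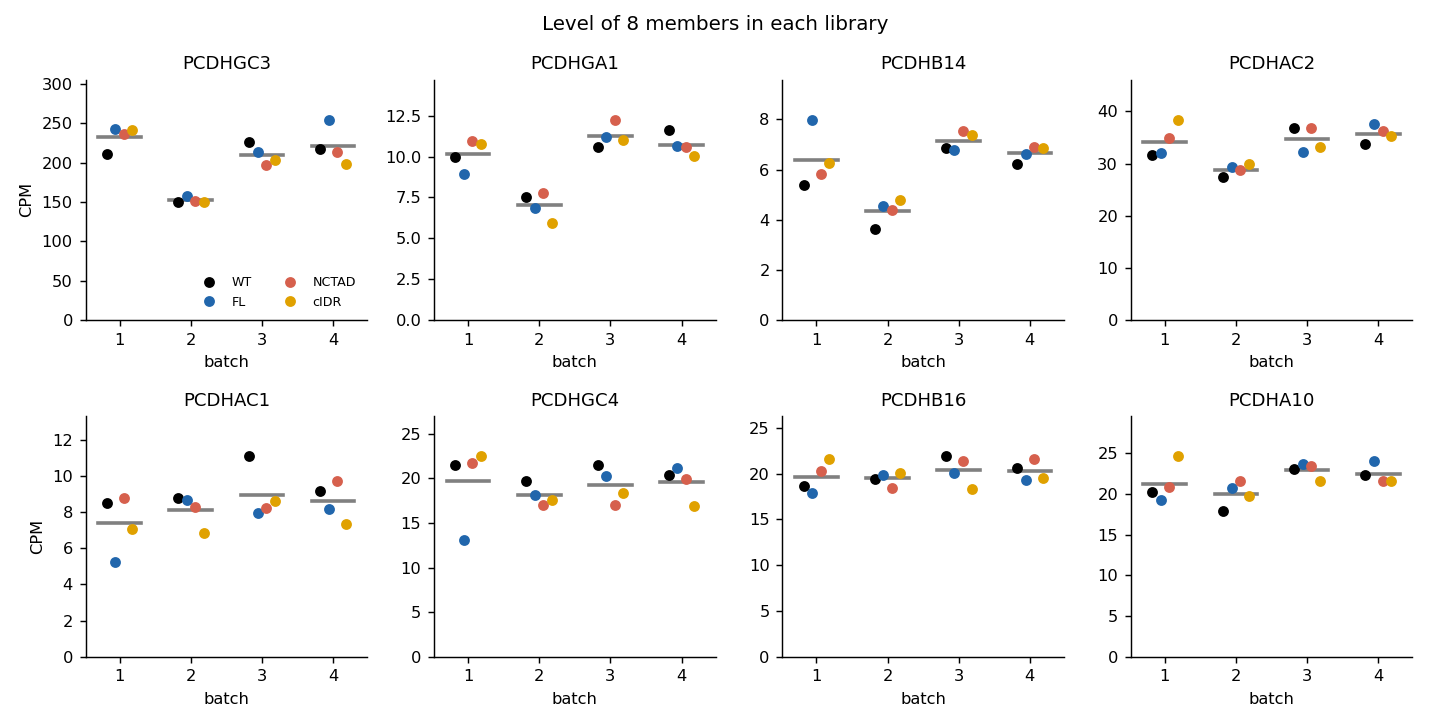
CPM (vertical, from 0) of 8 members in batches 1 to 4 (horizontal), with points for libraries coloured by group and grey bars for batch means. The upper row shows the 4 members whose batch 2 libraries all lie below the others, such as PCDHGC3 at 150 to 158 CPM against 196 to 254, and the lower row 4 abundant members whose ranges overlap.

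Other members named for their level or as C-type genes did not pass the test. PCDHB16 was at 18.4 to 20.1 CPM in batch 2 and 17.9 to 21.9 elsewhere (-0.043 ± 0.060, edgeR adjusted p = 0.57). PCDHGC4 (-0.11 ± 0.11, edgeR adjusted p = 0.42), PCDHAC1 (-0.021 ± 0.099, edgeR adjusted p = 0.87) and PCDHGC5 (-0.10 ± 0.23, edgeR adjusted p = 0.73) were not called. The difference between these and the C-type genes that were called, PCDHGC3 and PCDHAC2, was not tested. PCDHA10 (-0.15 ± 0.065) and PCDHA11 (-0.31 ± 0.15) missed the threshold (edgeR adjusted p = 0.060 and 0.092). PCDHGB7 (-0.21 ± 0.12) and PCDHB8, which lay above 0 (0.13 ± 0.10), were not called either (edgeR adjusted p = 0.14 and 0.33). Without FL library 1, PCDHGC4, PCDHA10, PCDHA11, PCDHGB7, PCDHA2 and PCDHGA9 were called lower as well.

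**Figure D4:**
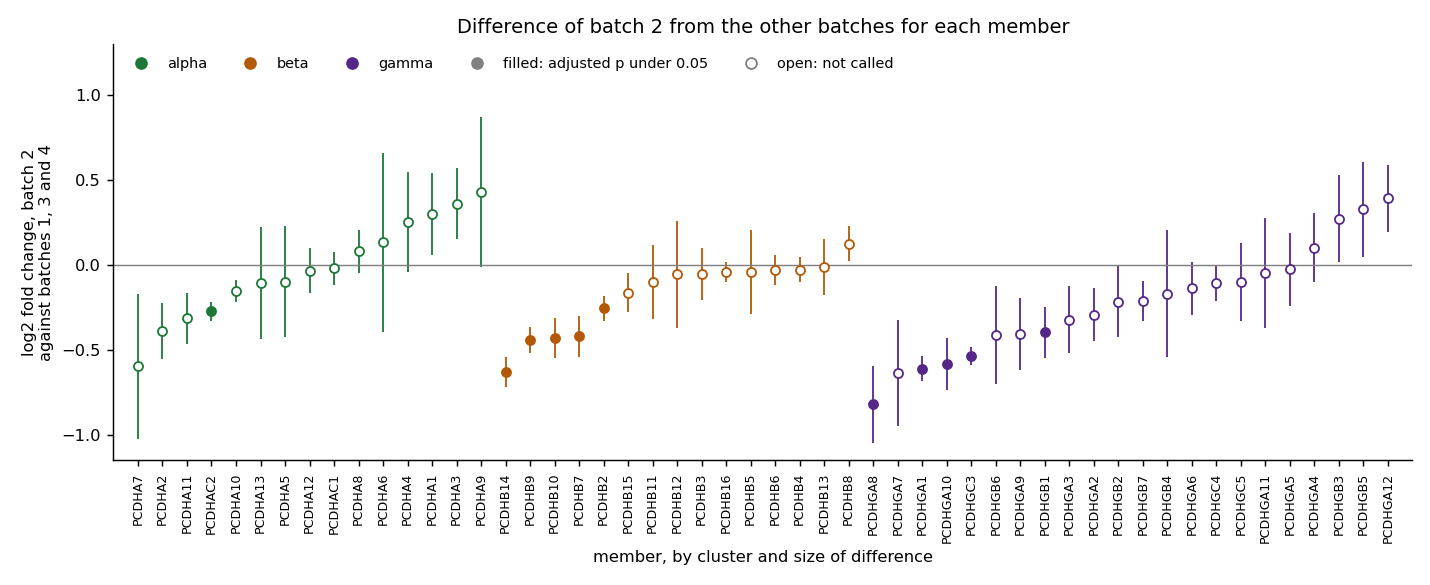
Log2 fold change of each member in batch 2 against batches 1, 3 and 4 (vertical, bars are SE), sorted within clusters (horizontal). Filled points are the 11 members with an edgeR adjusted p under 0.05, all below 0, and 41 of the 52 points lie below 0.

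Against single batches, batch 2 had 11 members lower and 0 higher than batch 1 (23.5% and 22.3% of all genes), 11 and 0 against batch 3 (23.3% and 23.8%), and 8 and 1 against batch 4 (22.7% and 22.8%). The 1 higher member was PCDHGA12. PCDHGC3, PCDHGA1, PCDHB14, PCDHB9, PCDHB7 and PCDHAC2 were lower against each of the 3. Other batches differed from the rest in fewer members. Batch 1 had 2 higher, PCDHGC3 and PCDHGA2 (14.9% of all genes), and 0 lower (9.77%). Batch 3 had PCDHB14, PCDHB9 and PCDHGA1 higher (7.66%) and PCDHA12 lower (8.31%), and batch 4 had PCDHGC3 higher (6.57%) and PCDHGA12 lower (6.87%). These sets share batches, batch 2 included, and are not independent of one another.

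Genes known to act on the clusters were compared in the same way, and every list count that follows is to be read against the 26.1% of all tested genes that were lower and the 27.7% that were higher in batch 2, with a median of 0.035. Of 25 regulators 11 were lower and 1 higher, with a median of -0.16. CTCF, which holds promoters and enhancers of the clusters together, was at 88.1 ± 2.96 CPM in batch 2 and 123 ± 4.88 elsewhere (-0.48 ± 0.044, edgeR adjusted p = 4.1e-07). STAG1, a cohesin subunit, was lower too (-0.56 ± 0.054, edgeR adjusted p = 6.3e-07). The silencing factors TRIM28 (-0.52 ± 0.046) and EHMT2 (-0.42 ± 0.041) were also lower (edgeR adjusted p = 2.7e-07 and 8.6e-07). SMC1A (-0.44 ± 0.049), SMC3 (-0.16 ± 0.041), PDS5A (-0.36 ± 0.063) and PDS5B (-0.36 ± 0.048), outside the naming rule, were called lower (edgeR adjusted p = 3.1e-06, 0.0037, 0.00025 and 1.8e-05). RAD21, NIPBL, STAG2, WAPL and SETDB1 were not called, and DNMT3A, a DNA methyltransferase, was the 1 higher gene (0.15 ± 0.056, edgeR adjusted p = 0.038). None of the 25 was called in the 6 comparisons of groups, with or without the block.

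Of 15 listed partners and processing genes 13 were tested, and 5 were higher and 5 lower in batch 2 (27.7% and 26.1% of all genes), with a median of -0.051. NLGN2, a synaptic adhesion protein, rose by 0.68 ± 0.077 (edgeR adjusted p = 3.3e-06). CYFIP2, of the WAVE complex that binds protocadherin tails, and the kinase FYN were higher by 0.28 ± 0.059 and 0.23 ± 0.039 (edgeR adjusted p = 0.0010 and 0.00017), but FYN was not called against batch 1 alone (0.12 ± 0.049, edgeR adjusted p = 0.065). ADAM10, the protease that cleaves gamma protocadherins, was lower (-0.26 ± 0.046, edgeR adjusted p = 0.00021), but was not called on log2(TPM + 0.1) (-0.020 ± 0.13, limma adjusted p = 0.92) or against batch 1 alone (-0.12 ± 0.055, edgeR adjusted p = 0.099).

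Protocadherins outside the clusters did not move one way. Of 12 listed, 11 were tested, with 3 higher and 1 lower in batch 2 and a median of 0.17. PCDH9 was lower, at 79.0 ± 4.15 against 148 ± 18.9 CPM (-0.89 ± 0.056, edgeR adjusted p = 8.6e-09). PCDH12 (2.90 ± 0.27, edgeR adjusted p = 5.6e-07), PCDH20 (0.67 ± 0.097, edgeR adjusted p = 4.0e-05) and PCDH1 (0.32 ± 0.065, edgeR adjusted p = 0.00076) were higher. PCDH12 was weakly expressed, at 1.28 ± 0.27 CPM in batch 2 and 0.179 ± 0.084 elsewhere. Of 9 tested classical cadherins 5 were higher and 2 lower, with CDH2, the neuronal N-cadherin, at -0.48 ± 0.035 (edgeR adjusted p = 4.1e-08) and CDH12, CDH22 and CDH11 at 1.16 ± 0.11, 0.94 ± 0.14 and 0.87 ± 0.095 (edgeR adjusted p = 9.0e-07, 4.7e-05 and 2.2e-06).

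Hypoxia genes and the mesenchymal and epithelial marker sums also stood apart in batch 2, and their part in the protocadherin differences was not tested. Of 12 hypoxia genes 11 were higher in batch 2 and 0 lower, with a median of 1.38, among them PDK1 (2.81 ± 0.085, edgeR adjusted p = 4.7e-12), PFKFB4 (2.24 ± 0.050, edgeR adjusted p = 2.4e-13), BNIP3 (1.73 ± 0.058, edgeR adjusted p = 1.2e-11) and VEGFA (1.50 ± 0.085, edgeR adjusted p = 3.1e-09). The 8 mesenchymal markers summed to 208 to 215 TPM in batch 2 and 127 to 163 elsewhere, with 4 of 8 over 1 TPM in all libraries. Those 4 were TWIST1 at 81.1 to 108 TPM, PDGFRB at 18.4 to 43.3, LUM at 15.9 to 53.8 and DCN at 7.19 to 19.7, while COL1A2 and PRRX1 were at 0 in the median library and at most 0.125 and 0.166 TPM. The 4 Schwann cell markers summed to 6.60 to 8.50 TPM in batch 2 and 3.98 to 6.79 elsewhere, with SOX10 at 0 in the median library. The 4 epithelial markers summed to 2.12 to 3.30 and 0.871 to 1.48 TPM, with CDH1 at 0 in the median library. In batch 2 the 12 adrenergic markers (6771 to 7120 TPM) and mitochondrial transcripts (6.76 to 7.38% of counts) lay within the ranges of the other batches, 6522 to 7568 TPM and 2.55 to 10.3%. Between groups, 0 of 12 hypoxia genes were called in each of the 6 comparisons without the block, as for the members. Only with the block were some called, all higher: 6 of 12 for NCTAD against WT, 8 of 12 for cIDR against WT, 1 of 12 for cIDR against FL and 0 of 12 in the other 3, and the members again numbered 0 in each.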

How the data were processed

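RNA of 16 SK-N-BE(2) libraries in 4 groups of 4 was sequenced after poly(A) selection with a stranded kit, from 250 ng RNA and 13 PCR cycles, per the labels' protocols. The submitters' processing notes name fastp, STAR, Salmon, featureCounts and GRCh38, and versions and the annotation release are not given in the sources used here. The authors deposited estimated counts per gene, made with Salmon per the submitters' processing notes, and TPM per gene, with one column per library in each. The authors' column names call FL WT, WT CTRL, NCTAD NTAD and the line BE2c, and groups follow the labels.

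Estimated counts were rounded to whole numbers and tested with edgeR 4.0.16 (R 4.3.3) by the quasi-likelihood test, with TMM scaling, over 19530 of 63187 genes passing filterByExpr, and Benjamini-Hochberg adjustment over all of them at 0.05. One model over all 16 libraries had group as its term, and a second had group and batch, for batch 2 against the mean of batches 1, 3 and 4. All 52 members passed the filter. Cluster sums used unrounded CPM and got no test. SE of a log2 fold change is its size over the root of the F value. TPM from the deposited table served levels and limma 3.58.1 on log2(TPM + 1) and log2(TPM + 0.1), on whose scale changes of low genes are understated. DESeq2 1.42.0, median-of-ratios factors, other filters and libraries left out in turn were alternatives. The tests were checked on simulated counts. Deviations from group means correlated at 0.308 on average between libraries of one batch (0.0674 to 0.712) and -0.0945 between batches. The label batch ties them, so the block was used as a paired alternative. No 2 replicates were alike within sampling noise (chi-square per degree of freedom at least 6.71).

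Promoters came from RefSeq (GRCh38.p14) and transcripts from GENCODE 29. Named were the 3 most abundant members per cluster, the 5 C-type genes, for each group comparison the member with the smallest p where none was called, for batch 2 the 3 largest called differences per cluster in each direction, and at most 4 called genes per list by adjusted p. The members, lists and rules were chosen with earlier results of these data known.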

Additional observations from a re-analysis of the deposited data

Results flagged for a closer look

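Of 92 sets of 4 libraries checked for a library far from its group, 2 were marked, and chance marks about 1 in 20. The gamma cluster sum of WT library 2 was 217.2 CPM, while the other WT libraries lay between 304 and 313 CPM. That library belongs to batch 2, which was lowest in the other groups too, at 235, 224 and 222 CPM in FL, NCTAD and cIDR, and the check took no account of batch. PCDHGA10 was at 4.61 CPM in cIDR library 4, while the other cIDR libraries lay between 2.88 and 3.06 CPM.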

How the results depend on the processing

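With batch as a replicate block the count of members called stayed at 0 in each of the 6 group comparisons, and also with batch 2 left out, with batch 2 left out and the block together (an alternative chosen after seeing the data), with only the 8 libraries compared, with DESeq2, other size factors, other filters, TPM or each library left out. The count for batch 2 moved from 11 to 7 with limma on log2(TPM + 0.1) and ranged from 9 to 17 with single libraries left out, 17 being without FL library 1. Under the other alternatives the count was at most 14. Cluster sums, which had no test, changed sign in many comparisons between groups, as their differences were small beside the spread over batches; those that moved by more than that spread are given. Within batches, the alpha sum moved from -0.0071 to 0.11 for FL against WT with the mean of the members' log2 CPM, and from 0.028 to -0.035 with library totals and -0.057 with summed TPM for NCTAD against WT; the beta sum moved from 0.019 to -0.044 with library totals for NCTAD against WT. For batch 2, the alpha difference of -0.15 became -0.083 with library totals and, with the sign changed, 0.0052 with the mean log2 CPM, the beta difference -0.082 with summed TPM, and the gamma difference -0.38 with library totals, -0.21 with the mean log2 CPM and, without PCDHGC3 (chosen after seeing the data), -0.25. The cause was not tested. Members near 10 counts have wide errors, and most counts of members are estimates divided among genes.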
